A study of Mus musculus with 12 samples.

Results

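The genes described here are 10 that adipocytes express at high levels: the secreted factors Adipoq, Retn, Lep and Cfd, the lipid droplet proteins Plin1, Plin4 and Cidec, the fatty acid carrier Fabp4, the transcription factor Pparg and the enzyme Car3. They were followed in RNA of whole pancreas from 12 mice of 8 weeks, 1 array per mouse. The 4 groups of 3 mice were C57BL6/NHsd mice (Harlan; NHsd below) with chronic pancreatitis induced by cerulein, NHsd mice injected with saline, C57BL6/J mice (Jackson; J below) with cerulein pancreatitis and J mice injected with saline. The labels call the saline mice female and give no sex for the cerulein mice. Xist, the transcript of the inactive X chromosome, lay at log2 9.76 to 11.5 on the cerulein arrays and at 9.52 to 10.3 on the saline arrays, and the 3 Y-linked genes with a probe set, Uty, Kdm5d and Eif2s3y, lay under log2 4 on all arrays. A gene was represented by the probe set annotated to its symbol alone, and by the one with the highest mean over the 12 arrays where there were several. Of the 10 genes 8 had such a probe set, out of 18194 genes with one in the whole table, and Cfd and Plin1 were not analysed here. Of these 8, Adipoq, Retn, Fabp4 and Car3 were among the 8505 genes kept for testing, those whose signal exceeded log2 4 in 3 or more of the 12 mice. Plin4, Cidec, Pparg and Lep lay under log2 4 on all 12 arrays.

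The pancreas lies in visceral fat, and adipocytes occur both around it and between its lobules, so that a piece of pancreas can carry a varying amount of fat tissue. Adipocytes store triglyceride in a single large droplet coated by perilipins and by Cidec, and release hormones into the blood. The nuclear receptor Pparg drives their differentiation, and Adipoq, Fabp4 and the perilipin genes are among its targets. Cerulein, an analog of cholecystokinin, overstimulates the enzyme-secreting acinar cells, and its repeated injection leads to inflammation, acinar loss and fibrosis. In RNA of a whole tissue, fewer cells of a type and less RNA per cell cannot be told apart.

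Adipoq and Retn are the 2 tested genes with an entry in the RefSeq promoter table (build GRCm38.p6), and their promoters are shown because the amounts of both transcripts are followed below. Each window runs 300 bases on the + strand, at chr16:23146286-23146585 for Adipoq and chr8:3655520-3655819 for Retn. Capitals mark ATTGCA, the core of the site bound by C/EBP factors, which act with Pparg in adipocyte differentiation.
Adipoq: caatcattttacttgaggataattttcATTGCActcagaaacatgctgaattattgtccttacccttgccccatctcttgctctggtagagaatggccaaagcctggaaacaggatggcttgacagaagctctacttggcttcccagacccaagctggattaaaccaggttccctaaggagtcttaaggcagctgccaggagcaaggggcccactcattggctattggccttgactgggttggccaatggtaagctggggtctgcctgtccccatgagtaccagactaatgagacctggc
Retn: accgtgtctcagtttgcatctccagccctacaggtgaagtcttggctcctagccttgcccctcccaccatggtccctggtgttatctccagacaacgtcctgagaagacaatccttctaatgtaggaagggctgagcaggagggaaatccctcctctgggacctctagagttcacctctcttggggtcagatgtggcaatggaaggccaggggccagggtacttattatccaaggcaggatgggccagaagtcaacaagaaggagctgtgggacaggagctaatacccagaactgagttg
The search covered 3 short motifs on both strands. Besides ATTGCA these were the core element of nuclear receptors such as Pparg, spelled AGGTCA, and the TATA box, searched for as TATAAA. The Adipoq window held ATTGCA once, 223 bases upstream of the start, and none of the others, and the Retn window held none of them. Of 32851 mouse promoter windows of the same length, 8.4% held ATTGCA. The nuclear receptor element stood in 16.3% and the TATA box letters in 13.6%. Of the 8 listed genes with a window, 1 held the C/EBP core (Adipoq) and 1, Pparg, held both of the other motifs.

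All values below are the authors' deposited log2 probe set signals, so that 1 unit is a factor of 2, and levels of different genes are not compared. On the cerulein arrays the percentage of probe sets above log2 4 was 29.5% to 31.3%, against 26.3% to 27.0% on the saline arrays, and the median gene differed by 0.49 (log2). The mean signal of the 18 hybridization spike-in probe sets, RNA added in fixed amounts, was log2 6.90 to 7.27 on the cerulein arrays and 8.38 to 9.55 on the saline arrays. No processing lot is named in the sources used here; if the arrays of the 2 treatments were processed in separate lots, treatment and lot cannot be told apart in any cerulein difference below. For the higher median, changes after cerulein are also given on arrays shifted to equal medians. The spike-in signals were lower on the cerulein arrays, so this shift lowers those arrays further and does not take out the spike-in offset. The part of either offset in the results was not tested. The defining markers of the labelled tissue were present, with a mean over 10 acinar genes of log2 13.8 to 14.4 on every array.

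Adipoq, which encodes adiponectin, a hormone released by adipocytes, was present on all 12 arrays and varied mainly between mice of the same group. It measured 4.89, 7.19 and 7.17 in NHsd cerulein mice, against 7.04, 7.34 and 5.16 in NHsd saline mice. In J mice it measured 6.59, 6.09 and 6.23 after cerulein, against 7.29, 4.83 and 6.72 after saline. In 3 of the 4 groups 1 mouse lay far below its group mates, whereas the 3 J cerulein mice lay within 0.50 of each other, and cerulein and saline mice overlapped in both substrains. Against the mean of its mates the low mouse had a gap of -2.29 among the NHsd cerulein mice, a 4.88-fold lower signal. The gap was -2.03 (4.07-fold lower) among the NHsd saline mice and -2.17 (4.51-fold lower) among the J saline mice. Both treatments and both substrains thus held such a mouse.

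Retn encodes resistin, in mice a hormone of adipocytes. It measured 3.21, 4.46 and 4.17 in NHsd cerulein mice, against 4.46, 4.71 and 4.46 in NHsd saline mice. J mice had 4.46, 4.46 and 4.40 after cerulein, against 4.91, 4.46 and 4.79 after saline. The signal stayed close to the filter level of log2 4, was below it in 1 NHsd cerulein mouse, and was the same value on 5 arrays, so the groups met or overlapped in both substrains. Lep, which encodes leptin, the satiety hormone of fat, was at the lowest value of the table, log2 2.39, on 11 of 12 arrays and reached 2.45 on the other, of an NHsd cerulein mouse.

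Of the droplet proteins, Plin4, a perilipin that coats lipid droplets in fat, measured 2.84 to 2.94 in NHsd cerulein mice, against 3.26 to 3.46 in NHsd saline mice. J mice had 2.57 to 2.78 after cerulein, against 2.94 to 3.34 after saline. Every cerulein mouse was below every saline mouse of its substrain, as for 9.24% of the 18194 genes in NHsd mice and 8.04% in J mice, but all these values lie under log2 4, where no test was made in the main analysis. Cidec, which enlarges droplets by fusion, lay at 2.87 to 3.20 in cerulein mice and 2.91 to 3.67 in saline mice of both substrains.

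Fabp4, the fatty acid carrier of adipocytes, which macrophages and capillary endothelium also express, was the steadiest of the 3 genes with a signal well above log2 4. It measured 9.51, 9.95 and 10.20 in NHsd cerulein mice, against 9.70, 9.11 and 9.13 in NHsd saline mice. In J mice it measured 9.98, 9.63 and 9.49 after cerulein, against 10.26, 9.27 and 9.67 after saline. The groups overlapped in both substrains, in NHsd mice through 1 cerulein and 1 saline mouse. Pparg lay at 3.26 to 3.42 in cerulein mice and 3.18 to 3.43 in saline mice.

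Car3 encodes carbonic anhydrase 3, a cytosolic enzyme abundant in adipocytes, liver and slow skeletal muscle. It measured 8.96, 10.57 and 10.996 in NHsd cerulein mice, against 9.99, 10.17 and 8.98 in NHsd saline mice. The J mice measured 9.13, 10.33 and 10.25 after cerulein, against 10.84, 8.87 and 10.04 after saline. The 3 mice low in Adipoq were also the lowest of their groups in Car3, and 1 more low mouse stood among the J cerulein mice, where Adipoq was not low. Of 11 skeletal muscle genes with a probe set 10 lay under log2 4 on all arrays, among them Acta1, Ckm and Mb. The part of slow muscle or liver in the Car3 signal was not tested.

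**Figure D1:**
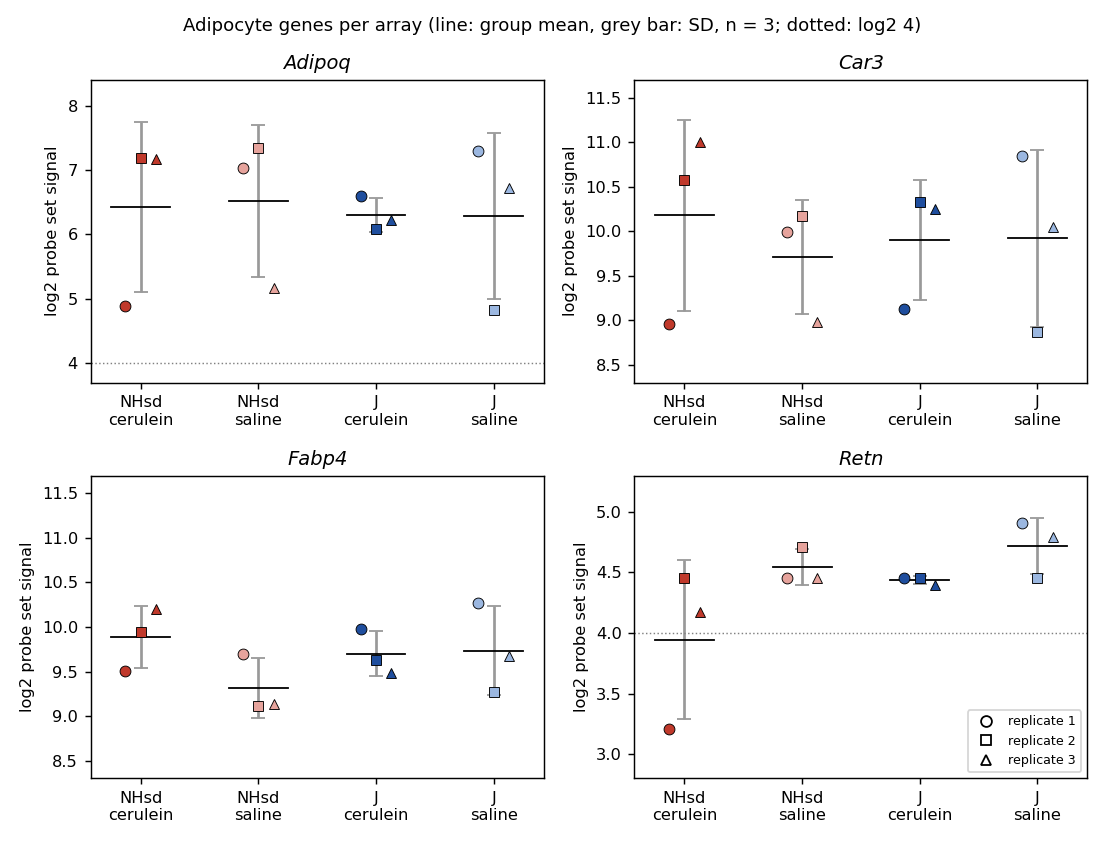
Log2 probe set signal of Adipoq, Car3, Fabp4 and Retn on each of the 12 arrays, with the mean and SD of each group of 3 mice and a dotted line at log2 4 where it is in range. The lowest Adipoq values, 4.89, 5.16 and 4.83, stand in 3 different groups, and Car3 is the lowest of the group in the same mice.

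The spread of Adipoq and Car3 among mice of the same group was among the largest on the array. The SD within groups was 1.10 for Adipoq and 0.866 for Car3 on the log2 scale, ranks 5 and 15 of 8505 genes, against 0.255 for the median gene and 0.649 at the 99th percentile. Fabp4 with 0.370 and Retn with 0.357 stood at ranks 1466 and 1678. The 4 genes with a larger spread than Adipoq were S100a8 and S100a9, which neutrophils express, Pik3cd, a kinase subunit of leukocytes, and Reg3g, an acinar gene of inflammation. The probe set annotated to Pik3cd had a mean signal of log2 12.8, and which transcript it reports was not tested. Differences between the 4 group means made up 1.07% of the total sum of squares of Adipoq and 5.18% of that of Car3. The same share was 32.7% for Fabp4 and 49.3% for Retn, against 69.8% for the median gene.

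**Figure D2:**
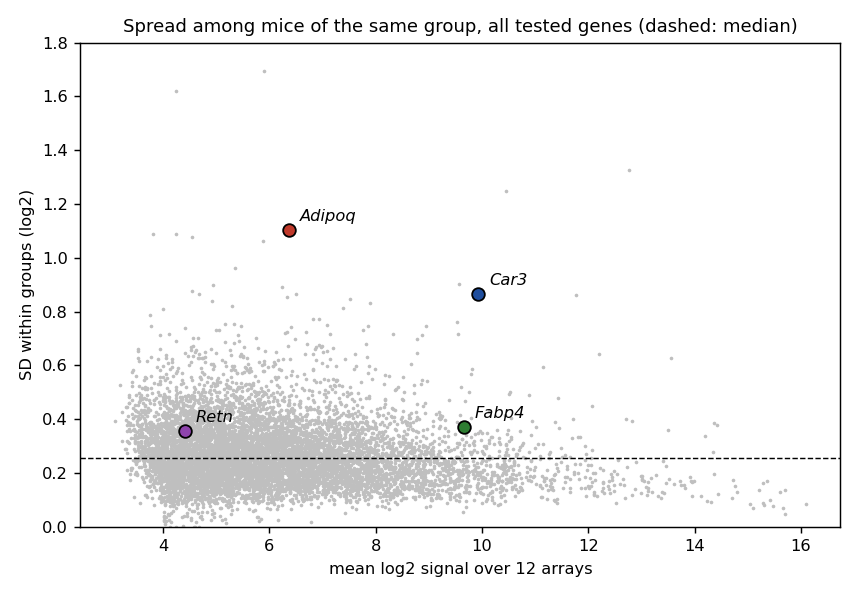
SD within groups (log2) against the mean log2 signal for all 8505 tested genes, with the 4 tested adipocyte genes marked and the median SD dashed. Adipoq at 1.10 and Car3 at 0.866 lie far above the median of 0.255, while Fabp4 and Retn lie nearer to it.

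The other adipocyte genes were followed on the 3 arrays low in Adipoq, as a description of arrays chosen by Adipoq. Car3 had a gap to the mean of its group mates of -1.83 in the NHsd cerulein mouse, -1.10 in the NHsd saline mouse and -1.57 in the J saline mouse. A second Car3 probe set gave gaps of -1.99, -1.41 and -1.55. The gaps of Fabp4 were -0.56, -0.27 and -0.70 in the same order, and -0.87, -0.03 and -0.49 by its second probe set. Those of Retn were -1.11, -0.13 and -0.39. Car3 was thus lower by more than a factor of 2 on each of the 3 arrays, as Adipoq was by the rule that chose them. The low NHsd saline mouse was not the lowest of its group in Fabp4 and shared its Retn value with a mate. Being the lowest of the group on the same 3 arrays was shared by 210 genes (2.47%), of which Car3 and, by the choice of arrays, Adipoq are listed here. A gap of over 1 log2 on all 3 was found in 3 genes (0.0353%): Car3, S100a8 and, by the choice of arrays, Adipoq. The median gene had a mean gap of 0.02.

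The mean correlations of these 3 arrays with the others of their group were 0.994, 0.989 and 0.991, against 0.983 to 0.993 on the other 9. The mean of the 10 acinar genes was the highest of its group on each of them, 14.38 in NHsd cerulein mice, whose lowest was 13.91, 14.44 in NHsd saline mice (lowest 14.37) and 14.41 in J saline mice (lowest 14.36). The mean of 14 macrophage genes was 7.89 on the low NHsd cerulein array, the lowest of that group, whose highest was 8.18. It was 4.58 on the low NHsd saline array and 4.63 on the low J saline array, also the lowest of groups that reached 5.14 and 5.16. Of the 10 marker lists with a tested gene, 4 had the lowest mean of the group on all 3 arrays: macrophage, lymph node B and T cells, mesothelium and lipid storage. These are means, and few single genes followed them. Lowest of the group on all 3 arrays were 2 of 14 macrophage genes and 1 of 3 lymph node genes. The same held for 1 of 4 mesothelium and 3 of 25 lipid storage genes, against 2.47% of all genes. The mean of 3 lymph node B and T cell genes was 5.67, 3.99 and 3.76 on the low arrays of NHsd cerulein, NHsd saline and J saline mice, in groups that reached 6.37, 4.89 and 4.76. Of that list 7 genes, Cd3d, Cd3e, Cd3g, Cd79a, Cd79b, Cd22 and Cd37, lay under log2 4 on all arrays. Over 4 mesothelium genes the low arrays had 6.12, 5.74 and 5.56, in groups that reached 6.36, 6.06 and 5.82. Over 25 lipid storage genes they had 6.35, 5.85 and 5.84, in groups that reached 6.57, 6.11 and 6.19. The part of these lists in the gaps was not tested. The array least like its group mates, with a mean correlation of 0.983, was J cerulein mouse 1. There the gap to the mean of the mates was 0.43 for Adipoq and 0.42 for Fabp4, but -1.16 for Car3 and -1.26 for its second probe set. It was -1.64 for lipoprotein lipase (Lpl) and -1.26 for fatty acid synthase (Fasn). The 4 adipocyte genes therefore did not move as 1 unit on that array.

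**Figure D3:**
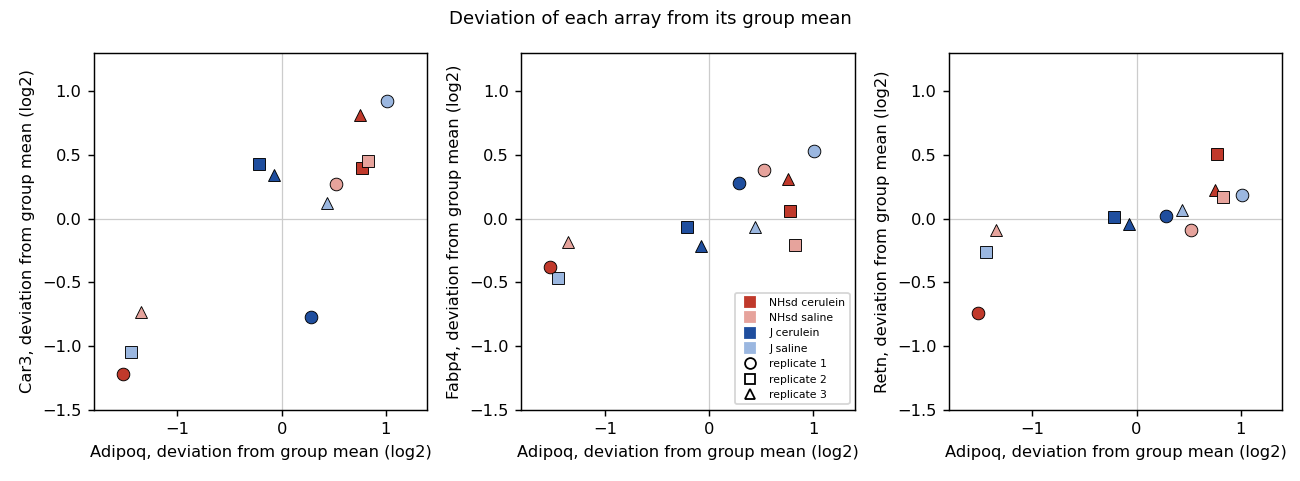
Deviation of Car3, Fabp4 and Retn from the mean of their group against that of Adipoq, 1 point per array, coloured by group and shaped by replicate (log2). The 3 points at the left are the arrays low in Adipoq, where Car3, Fabp4 and Retn are also below 0, and J cerulein mouse 1 has low Car3 without low Adipoq.

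The deviations of Adipoq from the group means fell into the 3 low arrays and the other 9, so no correlation over all 12 was tested. Over the 9 others the deviations of Retn had a Pearson's r of 0.48 with those of Adipoq (exact permutation test within groups, two-sided, p = 0.188, adjusted over 3 genes p = 0.563) and a Spearman's rho of 0.58 (p = 0.0833, adjusted p = 0.25). For Fabp4 r was 0.45 (exact permutation p = 0.5, adjusted p = 0.75) and rho 0.42 (p = 0.667, adjusted p = 0.708). For Car3 r was -0.13 (exact permutation p = 0.771, adjusted p = 0.771) and rho -0.15 (p = 0.708, adjusted p = 0.708). The 48 possible arrangements allow no p under 0.0208. Without the 2 arrays farthest in Adipoq r was 0.50 for Retn, -0.13 for Fabp4 and 0.19 for Car3, so the value of Fabp4 rests on those arrays. None of the 3 genes had a relation with Adipoq beyond the 3 low arrays that passed a test. With so few arrangements, 1 gene alone could not have passed after adjustment over 3 genes. The test therefore cannot decide whether such a relation exists. The r of Retn has a further limit: its signal lay near log2 4 and held the same value on 5 of the 12 arrays, some of them among these 9.

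As a description over all 12 arrays, the genes outside the list whose deviations from the group means were most like those of Adipoq were Snn with an r of 0.92, Pqbp1 with 0.88, Ccne1 with 0.87, Fbxl20 with 0.85 and Fcna with 0.85, where the median of all other genes was -0.04. Car3 with 0.85 ranked 5 of 8501, Retn with 0.80 ranked 13 and Fabp4 with 0.74 ranked 43. The 3 low arrays set much of this order: over the 9 others the same r was 0.50 for Snn, 0.03 for Pqbp1, 0.55 for Ccne1, 0.50 for Fbxl20 and 0.46 for Fcna. The spread of Snn within groups was 0.096, over 10 times smaller than that of Adipoq. Ccne1, the cell cycle protein cyclin E1, and Fcna, ficolin A of macrophages, moved more, with SDs of 0.488 and 0.464. The points share their arrays, and no test was made.

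The comparison of cerulein with saline asks which pancreatic genes respond to chronic pancreatitis. Over both substrains, 0 of the 4 tested adipocyte genes passed it, at an adjusted p below 0.05 in limma over 8505 genes, of which 69.4% passed, 59.4% higher and 10.1% lower. Adipoq averaged 6.36 ± 0.85 in cerulein mice and 6.397 ± 1.11 in saline mice (SD, n = 6 each), a difference of -0.04 (95% interval -1.16 to 1.09, limma adjusted p = 0.954). Car3 averaged 10.04 ± 0.81 in cerulein mice and 9.82 ± 0.76 in saline mice, a difference of 0.22 (-0.66 to 1.11, limma adjusted p = 0.637). Fabp4 averaged 9.79 ± 0.29 in cerulein mice and 9.52 ± 0.44 in saline mice, a difference of 0.27 (-0.14 to 0.67, limma adjusted p = 0.214). By its second probe set, an alternative added after seeing the data, Fabp4 differed by 0.47 and passed (limma adjusted p = 0.0497). Retn averaged 4.19 ± 0.50 in cerulein mice and 4.63 ± 0.20 in saline mice, a difference of -0.44 (-0.84 to -0.04, limma unadjusted p = 0.0351, adjusted p = 0.0505). The intervals of Adipoq and Car3 reach past a factor of 2 above, and that of Adipoq also below, so changes of that size are not excluded. The median SE over all genes was 0.143, against 0.52 for Adipoq. With each array shifted to equal medians, which moves the median gene from 0.49 to -0.10, Retn passed with -1.02 (limma adjusted p = 0.00053). The shift lowers cerulein against saline arrays for every gene, also where Retn held the same value on 5 arrays of both treatments. The passes of Retn with equal medians, here and within each substrain below, contain this shift. On that scale the differences of the other 3 genes were below 0 and did not pass, with -0.62 for Adipoq (limma adjusted p = 0.294), -0.36 for Car3 (adjusted p = 0.438) and -0.31 for Fabp4 (adjusted p = 0.123), so the signs of Car3 and Fabp4 turned. The mice low in Adipoq moved its difference: it was 0.35 without NHsd cerulein mouse 1, -0.37 without NHsd saline mouse 3 and -0.40 without J saline mouse 2. The difference of Car3 was 0.53, 0.04 and -0.04 without the same mice. Without NHsd cerulein mouse 1 that of Retn was -0.25 (limma adjusted p = 0.087). On the deposited scale Retn passed without NHsd cerulein mouse 2 (-0.57, limma adjusted p = 0.0118), without NHsd cerulein mouse 3 (-0.50, adjusted p = 0.0448) and without J saline mouse 2 (-0.50, adjusted p = 0.0409).

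Within NHsd mice, 0 of 4 passed, against 55.3% of all genes. Fabp4 averaged 9.89 ± 0.35 in cerulein mice and 9.32 ± 0.33 in saline mice (SD, n = 3 each), a difference of 0.57 (limma unadjusted p = 0.04998, adjusted p = 0.0822). It passed without NHsd cerulein mouse 1, the mouse low in Adipoq (0.76, limma adjusted p = 0.0456), and without NHsd saline mouse 1 (0.76, adjusted p = 0.0396). With equal medians its difference was -0.02. The second Fabp4 probe set gave 0.77 on the deposited scale and passed (limma adjusted p = 0.0333). Retn averaged 3.95 ± 0.66 in cerulein mice and 4.54 ± 0.15 in saline mice, a difference of -0.60 (limma unadjusted p = 0.0416, adjusted p = 0.0704), and passed without NHsd cerulein mouse 2 (-0.85, adjusted p = 0.0157). It was -0.23 without NHsd cerulein mouse 1 (adjusted p = 0.328), and it passed with equal medians (-1.18, adjusted p = 0.0038). Adipoq differed by -0.09 and Car3 by 0.46, neither at an unadjusted p below 0.05. Without NHsd cerulein mouse 1 these were 0.67 and 1.07, without NHsd saline mouse 3 they were -0.77 and 0.10, and with equal medians -0.68 and -0.12, and none of these passed.

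Within J mice, 0 of 4 passed, against 55.4% of all genes. The difference was 0.02 for Adipoq, -0.02 for Car3, -0.03 for Fabp4 and -0.28 for Retn, with intervals from -1.57 to 1.61 for Adipoq and from -0.61 to 0.54 for Fabp4. None had an unadjusted p below 0.05 in limma. Without J saline mouse 2, low in Adipoq, the difference was -0.70 for Adipoq, -0.54 for Car3, -0.27 for Fabp4 and -0.41 for Retn, none of which passed. Adipoq had -0.56 and Car3 -0.59 with equal medians and did not pass. On that scale Fabp4 (-0.61, limma adjusted p = 0.0482) and Retn (-0.86, adjusted p = 0.0212) passed, both lower in cerulein mice.

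**Figure D4:**
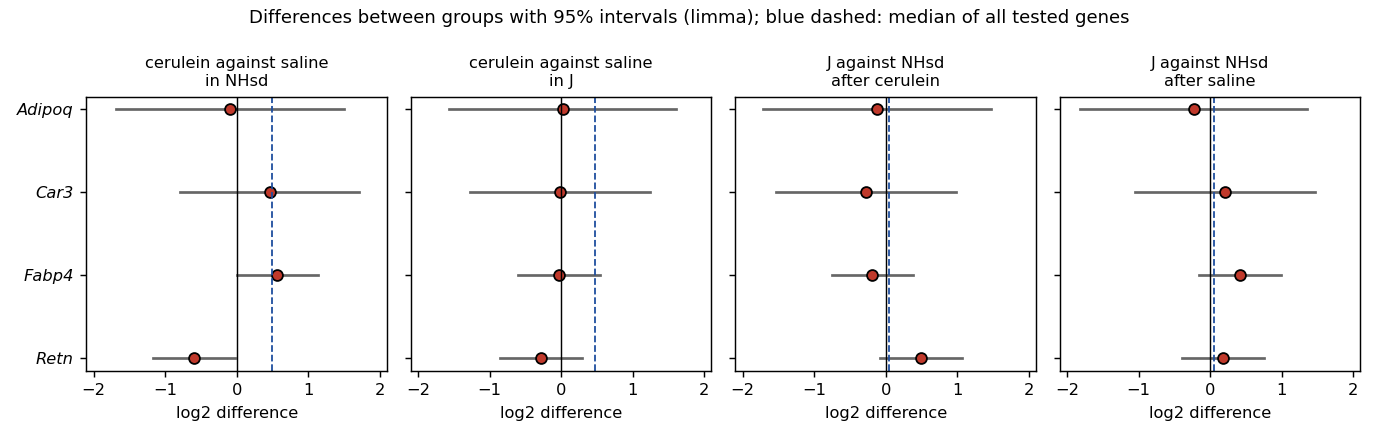
Log2 differences of the 4 tested adipocyte genes with 95% intervals from limma, for cerulein against saline in each substrain and for J against NHsd after each treatment, with the median of all tested genes dashed. The intervals of Adipoq run past 1 log2 on both sides in all 4 panels, and no difference passed the adjusted threshold.

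The substrains were compared to ask whether J and NHsd mice differ in pancreatic expression at rest and in disease. After cerulein 0 of 4 adipocyte genes passed, against 0.223% of all genes, and after saline 0 of 4, against 0.0588%. Adipoq averaged 6.30 ± 0.26 in J cerulein mice and 6.42 ± 1.32 in NHsd cerulein mice (SD, n = 3 each). It averaged 6.28 ± 1.29 in J saline mice and 6.51 ± 1.18 in NHsd saline mice. The widest of these differences were 0.49 for Retn after cerulein (-0.08 to 1.06, limma adjusted p = 0.581) and 0.42 for Fabp4 after saline (-0.15 to 0.99, adjusted p = 0.841). Single mice set these values: without NHsd cerulein mouse 1 the differences after cerulein were 0.12 for Retn and -0.88 for Adipoq, and without J saline mouse 2 those after saline were 0.65 for Fabp4 and 0.49 for Adipoq. Without NHsd saline mouse 3 that of Adipoq after saline was -0.91. None of these passed. The cerulein effect was compared between substrains as J minus NHsd, where 0 of 4 passed against 0.0118% of all genes. That difference was -0.61 for Fabp4 (-1.41 to 0.20, limma adjusted p = 0.727), 0.32 for Retn, -0.48 for Car3 and 0.11 for Adipoq. Without NHsd cerulein mouse 1 it was -0.05 for Retn, -1.09 for Car3 and -0.65 for Adipoq, and without NHsd saline mouse 3 it was 0.79 for Adipoq. None of the 4 genes had an unadjusted p below 0.05 in any of these 3 comparisons in limma.

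Genes of lipid storage and release outside the 10 were followed in the same comparison. Of 25 tested genes of a list of lipid storage and lipolysis, 12 rose after cerulein over both substrains, 1 fell and 12 did not pass, with a median of 0.42 against 0.49 for all genes, whereas with equal medians 4 rose and 11 fell, with a median of -0.17 against -0.10. Without any 1 array, 11 to 13 rose and 0 or 1 fell. The 12 of 25 stand beside the 59.4% of all genes that were called higher. With equal medians the shares of all genes were 26.6% higher and 36.1% lower.

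Plin2, the perilipin of lipid droplets in most cells other than adipocytes, rose most. It measured 7.12, 6.81 and 7.19 in NHsd cerulein mice, against 5.03, 4.83 and 4.31 in NHsd saline mice. In J mice it measured 7.20, 7.19 and 6.998 after cerulein, against 4.90, 3.91 and 4.36 after saline. No cerulein mouse overlapped a saline mouse, and the difference was 2.53 (SE 0.17, limma adjusted p = 1.49e-07) and 1.95 with equal medians. Cav2, a caveolin of the plasma membrane of adipocytes and endothelium, differed by 1.35 (limma adjusted p = 2.35e-06), 0.76 with equal medians.

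Lpl, the lipase that frees fatty acids from lipoproteins, made by adipocytes, muscle and macrophages, also rose. It measured 10.64, 10.29 and 10.94 in NHsd cerulein mice, against 9.49, 8.67 and 9.32 in NHsd saline mice. The J mice measured 9.10, 10.94 and 10.54 after cerulein, against 9.46, 9.10 and 9.01 after saline. J cerulein mouse 1, the array least like its mates, lay among the saline mice, and the difference was 1.23 (limma adjusted p = 0.00149), or 0.65 with equal medians (adjusted p = 0.034) and 1.51 without that mouse. Thrsp, a nuclear protein of lipid synthesis, differed by 1.12 (limma adjusted p = 0.0431) but was not called with equal medians (0.54, adjusted p = 0.315). It was called without NHsd cerulein mouse 1 or 3, NHsd saline mouse 2 or J saline mouse 1, and not called without any 1 of the other 8. Pnpla2, the lipase that starts the breakdown of stored triglyceride, fell, with a difference of -0.31 (limma adjusted p = 0.0374), or -0.89 with equal medians. It was called without J cerulein mouse 2, NHsd saline mouse 3 or J saline mouse 2, and not called without any 1 of the other 9.

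These genes moved beside markers of other cells. The 14 tested macrophage genes all rose after cerulein, with a mean level of 7.89 to 8.67 on cerulein arrays and 4.58 to 5.16 on saline arrays, and the mean of 7 fibroblast and preadipocyte genes was 7.72 to 9.06 on cerulein arrays and 5.71 to 6.42 on saline arrays. Their part in the rise of Plin2, Cav2 and Lpl was not tested. Of 7 brown fat markers with a probe set, 4 lay under log2 4 on all arrays: Cidea, Cox8b, Dio2 and Elovl3. Ucp1 and Cox7a1 reached log2 4 on some array, but on too few to be tested. The 1 tested, Ppargc1a, a coactivator that many tissues express, was called higher after cerulein (0.41), but had -0.17 and was not called with equal medians, nor on the deposited scale without NHsd cerulein mouse 3 (0.37), NHsd saline mouse 1 (0.35) or J saline mouse 2 (0.35). Of the same lipid storage list, 6 genes lay under log2 4 on all arrays, among them Lipe, the hormone-sensitive lipase of adipocytes, and Slc2a4, the glucose transporter that insulin regulates in fat and muscle.

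Of the receptors for the adipocyte hormones, 3 were tested and 2 fell after cerulein, where 10.1% of all genes were called lower, and with equal medians all 3 fell, where 36.1% were. Cdh13, T-cadherin, which binds adiponectin on vessels and muscle, measured 3.68, 3.89 and 3.81 in NHsd cerulein mice, against 4.62, 5.19 and 5.19 in NHsd saline mice. In J mice it measured 3.65, 3.35 and 4.14 after cerulein, against 5.13, 5.17 and 4.74 after saline. No mice overlapped between treatments, and Cdh13 fell, with a difference of -1.25 (limma adjusted p = 2.05e-05), or -1.84 with equal medians. Its level was under log2 4 in all 3 NHsd and 2 of 3 J cerulein mice, so the size of the change is inexact in both substrains. Cdh13 exceeded log2 4 in every saline mouse but, after cerulein, only in the J mouse at 4.14. It was thus kept for testing through the saline mice, where it was higher. Its call, and its place among the receptors that fell, are not independent of that filter. Adipor1, an adiponectin receptor, fell, with a difference of -0.30 (limma adjusted p = 0.0395), or -0.88 with equal medians (adjusted p = 1.99e-05). On the deposited scale this was a call kept without NHsd cerulein mouse 1, J cerulein mouse 1, J saline mouse 2 or J saline mouse 3 and lost without any 1 of the other 8. Adipor2, the other receptor, had a difference of 0.20 (adjusted p = 0.122), which was -0.38 and passed with equal medians. No gene of either list passed in the comparisons of J with NHsd.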

How the data were processed

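RNA of pancreas from 12 mice was hybridised to Affymetrix mouse arrays, 1 array per mouse and 3 mice per group, groups being taken from the labels. The authors deposited log2 signals per probe set made with GCRMA, per the submitters' processing notes, which also name Partek; versions and further steps are not given in the sources used here. GCRMA models background from probe composition and sets many low probe sets to nearly the same value, so low signals carry little information. The 45101 probe sets ranged from 2.39 to 16.4 and were used as deposited. The annotation of the array gave 34958 of them 1 gene symbol. The 8505 genes that exceeded log2 4 in 3 or more mice were fitted in limma 3.58.1 (R 4.3.3) with 1 mean per group over all 12 arrays (8 residual degrees of freedom), an intensity trend and Benjamini-Hochberg adjustment over all 8505 genes, two-sided, at 0.05. The fit was tested on simulated data.

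The members, gene lists and tests were chosen with earlier results of these data known. Genes outside the members were named by rule: the called genes of the lists of lipid storage and of adipokine receptors, at most 4 per list and direction, and the 5 genes most like Adipoq in deviations from group means. Fasn, Ppargc1a and the genes with a larger spread than Adipoq or low on the same arrays, were named after their values were seen. An array was described as low in Adipoq where it was the lowest of its group and lay over 1 log2 below the group mean. Of the 10 members 8 matched the RefSeq promoter table by symbol. The number of arrays limits the precision.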

Additional observations from a re-analysis of the deposited data

How the results depend on the processing

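Of the 4 tested adipocyte genes 0 were called in each of the 6 comparisons as fitted. Over both substrains 1 was called under quantile normalization, equal medians, no intensity trend, robust moderation and averaging over probe sets (Retn each time, lower after cerulein), 1 of the 8 genes then tested with no filter on low values (Plin4, lower, which is not among the 4) and 1 with the second probe sets of Fabp4 and Car3, an alternative added after seeing the data (Fabp4, higher). In NHsd mice 1 was called under quantile normalization and equal medians (Retn), with no filter (Plin4) and with the second probe sets (Fabp4). In J mice 1 was called under quantile normalization (Retn) and with no filter (Plin4), and 2 with equal medians (Fabp4 and Retn). Leaving out 1 array each time gave 0 to 1 called over both substrains and in NHsd mice, and 0 in the other 4 comparisons. The causes were not tested, except that equal medians and quantile normalization by construction take out the higher median of cerulein arrays: the share of calls that are higher after cerulein was 85.5% as deposited, 48.2% after quantile normalization and 42.4% with equal medians. In the comparisons of J with NHsd 0 members were called under every alternative run. With the replicate block 0 members were called in all 6 comparisons; same-numbered arrays of different groups had correlations of deviations from -0.16 to 0.34, with 6 of 18 above 0.1, and 13 of 36 array comparisons ranked the own number first, so the number is not a pairing. Over all genes, filtering at log2 6 called 3543 in place of 5904 over both substrains, 2955 in place of 4700 in NHsd mice and 2890 in place of 4716 in J mice, with 4762 genes tested. The few calls between substrains moved more: 19 after cerulein became 0 in the fit of only the groups compared, 7 with the replicate block and 5 to 89 without 1 array, 5 after saline became 0, 2 and 1 to 9, and 37 with no filter, and 1 for the difference of effects ranged over 0 to 15. The fit of only the groups compared gave no value for the 2 comparisons of all 4 groups. The planned correlation over 12 arrays was replaced by 9 arrays, chosen after seeing the data; the r of Car3 to Adipoq then ran from -0.74 to 0.80 over the alternatives, that of Fabp4 from 0.07 to 0.88 and that of Retn from 0.34 to 0.71. Signals near log2 4 limit Retn, and those under it Plin4, Cidec, Pparg and Lep.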

Other observations

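Besides Adipoq, Car3 and Thrsp, 8 genes were over 0.5 log2 below both group mates' mean on the same 3 arrays. These 11 genes were 0.129% of the 8505 tested. Most of the 8 are genes of leukocytes: S100a8, a calcium-binding protein of neutrophils, the antibody genes Igha, Iglv1 and Jchain, and Pou2af1, a coactivator of B cells. The others were Hp (haptoglobin), Ccne1 and Socs5. S100a8 had a gap to the mean of its mates of -2.65 in the NHsd cerulein mouse, -3.02 in the NHsd saline mouse and -1.20 in the J saline mouse. The gaps of Jchain, which joins secreted antibodies of IgA and IgM, were -0.72, -0.54 and -2.21, and those of Pou2af1 were -1.35, -0.56 and -1.04 in the same order. Of the list of lymph node B and T cell genes 3 were tested, of which 1 was the lowest of its group on all 3 arrays, and 7 lay under log2 4 on all arrays. Some of these gaps rest on signals under log2 4, which carry little information. On the low arrays, in the same order, Hp was at 3.39, 3.04 and 2.82 and Pou2af1 at 3.56, 3.54 and 2.68. On the low J saline array S100a8 was at 2.86 and Iglv1 at 2.48. Jchain and Igha stayed above log2 4 on all 3 low arrays. The 8 genes were named after their values were seen, and no test was made.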
